A study of Arabidopsis thaliana with 66 samples.

Results

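The 8 genes described here belong to the pathway by which roots of Arabidopsis thaliana answer aluminium and low phosphate at the root tip. They were taken by locus from the known members of that pathway and are 8 of the 27313 loci in the tables. The genes are ALMT1 (AT1G08430), STOP1 (AT1G34370), MATE (AT1G51340), ALS1 (AT5G39040, also called ABCB27), ALS3 (AT2G37330), LPR1 (AT1G23010), LPR2 (AT1G71040) and PDR2 (AT5G23630). Root RNA was sequenced in 66 libraries, 3 in each of 22 groups, to compare how phosphate supply and nano-hydroxyapatite change the response to thorium after 14 days. The stock lines N8507, N8508 and N9416, called mutants in the series design, were set beside the wild type Col-0. The labels do not name the genes mutated in the lines. All 4 genotypes had groups on phosphate-free medium with thorium (-P+Th), on phosphate-free medium (-P), on phosphate-free medium with nano-hydroxyapatite and thorium (nanoP+Th), on that medium with nano-hydroxyapatite alone (nanoP), and on the untreated control (mock). Libraries of thorium on control medium (mock+Th) were analysed for N8507 and N9416. The labels give no origin for the 3 libraries of a group, so p-values measure the spread between these libraries, which may be technical.

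In this pathway the zinc finger protein STOP1 is a transcription factor that accumulates in the nucleus under low pH, aluminium or iron excess. It drives ALMT1, which encodes a malate channel of the plasma membrane, and MATE, which encodes a citrate transporter; the exported acids bind aluminium and iron outside the root. ALS1 is a half-size ABC transporter of the vacuole membrane, and ALS3 is a permease-like membrane protein. Both are needed for tolerance of aluminium. LPR1 and LPR2 are multicopper ferroxidases that, together with malate and iron, stop root growth under low phosphate. PDR2 is an ATPase of the endoplasmic reticulum that restrains LPR1.

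The 250 bases before the start of 4 of these genes are shown because ALMT1, MATE and ALS3 rose together under thorium on -P in N8507 and N8508 while PDR2 was not called there. The sequences are from the TAIR10.1 RefSeq genome and annotation, read 5′ to 3′ on the strand of the gene. ALMT1 is preceded by chr1:2658352-2658601 (plus strand), MATE by chr1:19030748-19030997 (plus strand), ALS3 by chr2:15668881-15669130 (plus strand) and PDR2 by chr5:7968198-7968447 (minus strand). Capitals mark the core letters of STOP1 binding (GGN followed by AC, by AG, by CC, by CG, by GC or by GG, on either strand), with overlapping matches joined.
ALMT1: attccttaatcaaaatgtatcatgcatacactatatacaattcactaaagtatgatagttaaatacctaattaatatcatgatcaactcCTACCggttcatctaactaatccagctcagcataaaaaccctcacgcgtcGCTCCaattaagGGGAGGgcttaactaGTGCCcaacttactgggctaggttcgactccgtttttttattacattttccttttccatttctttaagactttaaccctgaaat
MATE: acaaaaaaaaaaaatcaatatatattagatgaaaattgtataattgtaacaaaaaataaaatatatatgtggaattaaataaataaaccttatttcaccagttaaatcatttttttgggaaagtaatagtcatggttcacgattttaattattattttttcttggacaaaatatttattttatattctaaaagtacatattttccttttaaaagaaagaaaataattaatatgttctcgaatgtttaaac
ALS3: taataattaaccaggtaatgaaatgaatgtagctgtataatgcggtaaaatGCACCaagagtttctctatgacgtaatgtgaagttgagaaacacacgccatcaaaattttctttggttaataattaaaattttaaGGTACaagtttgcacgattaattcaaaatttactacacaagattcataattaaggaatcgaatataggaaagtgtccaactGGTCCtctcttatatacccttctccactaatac
PDR2: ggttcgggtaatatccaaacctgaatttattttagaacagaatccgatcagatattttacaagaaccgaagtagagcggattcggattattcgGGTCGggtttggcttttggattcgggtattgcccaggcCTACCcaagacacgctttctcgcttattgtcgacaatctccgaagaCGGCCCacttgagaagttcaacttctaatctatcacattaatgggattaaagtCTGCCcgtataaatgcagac
The core matched 5 times before ALMT1, 5 times before PDR2, 3 times before ALS3 and 0 times before MATE. Of 27443 promoters of this length, 86.4% held the core at least once and 19.7% held it 5 times or more, so the letters are common. STOP1 itself had 4 matches, LPR1 and LPR2 had 1 each and ALS1 had 0. The letters CGCG, bound by CAMTA factors, were found before ALMT1 and before none of the other 7 genes, against 10.1% of all promoters. TTGAC, the W-box core bound by WRKY factors, was found before STOP1 and ALS1 and in 44.9% of all promoters. GNATATNC, bound by phosphate starvation factors, was found before none of the 8 genes and in 5.5% of all promoters. A match is a description of the letters in this window and not a bound site.

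Each library held between 9.4 M and 16.76 M assigned reads (median 13.24 M). Libraries of N8508 and N9416 are numbered 193 to 225 and had a median of 11.99 M, against 14.83 M in those of N8507 and Col-0, numbered 128 to 160; for N8508 and N9416 the line and the number series cannot be told apart. Levels are given as CPM, read counts scaled to library size with TMM factors over all 66 libraries, or as TPM, which also corrects for gene length, where genes are compared with each other.

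Some libraries stood apart. The median effective length of a model was 59.2% of its coding length in replicate 3 of N8507 -P+Th, 60.7% in replicate 3 of N8507 nanoP and 62.8% in replicate 1 of Col-0 -P+Th, against 64.7% to 68.5% in the other 63. In Col-0 -P+Th, reads were found at 32 loci that had under 0.5 CPM in the 12 other Col-0 libraries and at least 5 CPM in all 51 libraries of the lines. The summed level at these loci was 0.313%, 3.81% and 10.2% of that in the lines on -P+Th in replicates 1, 2 and 3. At single loci the percentage reached 4.27%, 8.08% and 27.8% in the same order. The summed percentages of the highest ALMT1 level in a line would be 1.06, 12.9 and 34.6 CPM. The ALMT1 levels measured in these libraries were 30.8, 91.5 and 71.3 CPM. The part of such reads in the ALMT1 levels of Col-0 -P+Th was not tested. Some of the values that rest on Col-0 -P+Th are therefore also given by replicate 1 alone. That library has the fewest such reads of the group but a low effective length, and the alternative was chosen after seeing the data. A single library has no spread of its own, so that fit borrows the spread of the other groups, and its values are given as descriptions.

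The libraries are of whole roots, so fewer cells of a type and less RNA per cell cannot be told apart. The root tip markers PLT1, PLT2, WOX5, SMB, BRN1, BRN2, SCR and RGF1 were present at low levels. SCR, a regulator of the endodermis and stem cell niche, was the highest with a median of 35.4 CPM, and RGF1, a peptide of the root meristem, the lowest with a median of 0.32 CPM. SMB, BRN2 and RGF1 were at 0 in at least 1 library. Their summed level in -P+Th was 41.1 to 65.4 CPM in N8507, 63.3 to 72.3 CPM in N8508, 83.6 to 102 CPM in N9416 and 36.3 to 72.5 CPM in Col-0. In -P it was 72.1 to 93.0, 41.6 to 49.0, 36.6 to 47.1 and 39.6 to 70.5 CPM in the same genotypes. On control medium the sum was 69.3 to 89.7 CPM in N8507 mock+Th against 68.3 to 89.8 CPM in N8507 mock, and 81.7 to 104 CPM in N9416 mock+Th against 39.7 to 51.7 CPM in N9416 mock. The root tip sum was thus lower with thorium in N8507 on -P, higher in N8508 and N9416, and overlapped in Col-0. SCR, also a gene of the endodermis, weighs most in this sum, as the next marker, PLT1, had a median of 8.12 CPM. The 4 mature root markers (COBL9, EXPA7, CASP1 and MYB36) summed to 88.9 to 120 CPM in N8507 -P+Th against 200 to 284 CPM in N8507 -P, and to 297 to 425 CPM in N9416 -P+Th against 236 to 281 CPM in N9416 -P. The sums overlapped in N8508, with 112 to 135 CPM in -P+Th against 96.0 to 230 CPM in -P. They also overlapped in Col-0, with 169 to 254 CPM in -P+Th against 182 to 312 CPM in -P. The 6 green tissue markers summed to 2.55 to 62.8 CPM over all libraries. The part of these shifts in the results below was not tested.

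ALMT1 was close to silent in roots without thorium and became the most abundant transcript of the 8 genes in 2 of the lines on phosphate-free medium with thorium. Its mean level was 330 ± 9.23 CPM in N8508 -P+Th, 172 ± 55.5 CPM in N8507 -P+Th, 64.5 ± 30.9 CPM in Col-0 -P+Th and 33.3 ± 16.9 CPM in N9416 -P+Th (SD, n = 3 each, here and below). Next came thorium on control medium, with 6.88 ± 3.20 CPM in N8507 mock+Th and 5.56 ± 1.31 CPM in N9416 mock+Th. All other groups lay at 2.06 CPM or below. Among these, N8508 mock had 2.06 ± 0.918 CPM, N8507 nanoP+Th 1.57 ± 0.25 CPM, N8508 nanoP+Th 1.28 ± 1.06 CPM and N8507 mock 0.862 ± 0.127 CPM. Col-0 mock followed with 0.463 ± 0.131 CPM, N8507 -P with 0.424 ± 0.269 CPM, Col-0 nanoP+Th with 0.417 ± 0.202 CPM, N8508 -P with 0.221 ± 0.102 CPM and N9416 nanoP+Th with 0.207 ± 0.0515 CPM. The 7 lowest groups, N8507 nanoP, N9416 nanoP, N8508 nanoP, Col-0 nanoP, N9416 -P, Col-0 -P and N9416 mock, had means of 0.061 to 0.134 CPM, with 0 to 5 reads per library. In this order the libraries of neighbouring groups did not overlap between N8508 and N8507 -P+Th, between N8507 and Col-0 -P+Th, between N9416 -P+Th and N8507 mock+Th, between N9416 mock+Th and N8508 mock, and between N8507 mock and Col-0 mock. All other neighbours overlapped.

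**Figure D1:**
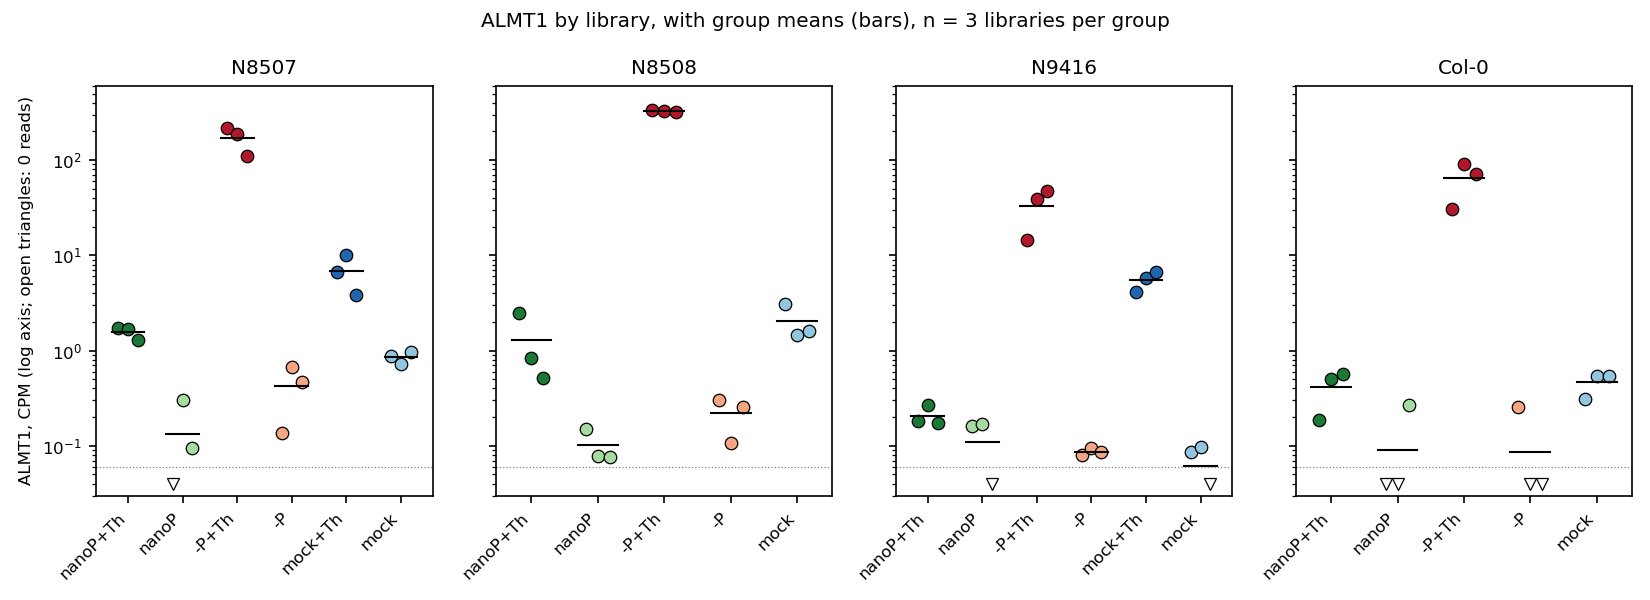
ALMT1 level (CPM, log axis) in each of the 66 libraries, by group and genotype; points are libraries, bars are group means and open triangles mark libraries with 0 reads. The -P+Th libraries lie between 14.4 and 339 CPM, above every other library, the highest of which has 10.2 CPM.

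The first comparison asked what thorium did on phosphate-free medium. Of the 8 genes, 5 rose and 0 fell in N8507, where 29.8% of all genes tested were called and 15.9% were called higher. In N8508, 5 rose and 0 fell, against 47.2% of all genes called and 23.2% called higher. In N9416, 1 rose and 1 fell, with 40.0% of all genes called and 20.1% called higher. In Col-0, 1 rose and 1 fell, with 25.4% of all genes called and 11.9% called higher. The median log2 fold change of the 8 was 1.07 in N8507, 0.76 in N8508, 0.03 in N9416 and -0.02 in Col-0, while that of all genes tested was near 0 in each. A call is an adjusted p under 0.05 in edgeR's quasi-likelihood test with Benjamini-Hochberg adjustment over all genes tested.

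ALMT1 was the gene that rose in every genotype. N8507 -P+Th had 217, 189 and 110.3 CPM against 0.135, 0.667 and 0.471 CPM in N8507 -P, a log2 fold change of 8.66 (SE 0.53, adjusted p = 1.38e-08). N8508 -P+Th had 339, 331 and 320.2 CPM against 0.302, 0.107 and 0.255 CPM in N8508 -P (log2 fold change 10.47, SE 0.37, adjusted p = 7.27e-11). In both lines the thorium libraries lay far above the -P libraries, all of which were under 1 CPM. N9416 -P+Th had 14.4, 38.6 and 47.0 CPM against 0.0807, 0.0943 and 0.0851 CPM in N9416 -P (log2 fold change 8.48, SE 0.58, adjusted p = 1.88e-08). Col-0 -P+Th had 30.8, 91.5 and 71.3 CPM against 0.255, 0 and 0 CPM in Col-0 -P (log2 fold change 9.35, SE 0.73, adjusted p = 1.48e-06). The groups were far apart here too, at lower levels than in N8507 and N8508. By replicate 1 of Col-0 -P+Th alone the log2 fold change was 8.30, and without the 3 libraries of low effective length it was 9.68.

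The -P groups held few ALMT1 reads, which bounds the precision of these folds. The 3 libraries held 7251 reads in N8507 -P+Th against 19 in N8507 -P, a ratio scaled to depth of 429 with a 95% exact interval of 275 to 714. The totals were 11505 against 7 reads in N8508 (ratio 1573, 763 to 3914), 1194 against 3 in N9416 (ratio 419, 143 to 2037) and 2822 against 4 in Col-0 (ratio 807, 315 to 2965). The interval of N8508 lies above that of N8507, all other pairs of intervals overlap, and they cover counting error only. ALMT1 passed the filter on low counts through the -P+Th group alone in Col-0, through 2 of 5 groups in N8508, 2 of 6 in N9416 and 4 of 6 in N8507, while the other 7 genes passed in every group. A neighbouring ALMT gene, AT1G08440, has 86.7% identity to ALMT1 in its coding sequence and shares 9 of 1452 stretches of 31 bases with it, but had at most 2.35 CPM in any library.

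MATE and the 2 ALS genes rose with ALMT1 in N8507 and N8508. MATE had 62.7, 59.6 and 60.6 CPM in N8507 -P+Th against 11.7, 9.80 and 13.8 CPM in N8507 -P, a log2 fold change of 2.39 (SE 0.31, adjusted p = 2.14e-05). In N8508 it had 47.8, 54.0 and 46.0 CPM in -P+Th against 28.0, 21.5 and 21.7 CPM in -P (1.07, SE 0.15, adjusted p = 4.32e-05). The citrate transporter transcript was thus higher in every thorium library of both lines. In N9416 it had 9.75, 14.1 and 16.3 CPM in -P+Th against 14.0, 12.5 and 15.0 CPM in -P (0.01, not called). In Col-0 it had 36.5, 32.6 and 26.0 CPM in -P+Th against 20.7, 22.2 and 27.5 CPM in -P (0.41, adjusted p = 0.102). Libraries of both groups overlapped in N9416 and in Col-0. By replicate 1 alone, the Col-0 log2 fold change of MATE was 0.62.

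ALS3 had 34.9, 33.6 and 56.9 CPM in N8507 -P+Th against 18.9, 20.5 and 17.4 CPM in N8507 -P (log2 fold change 1.16, SE 0.21, adjusted p = 0.000545). The highest value belongs to the library with low effective length, and without the 3 such libraries the log2 fold change was 0.88. In N8508 ALS3 had 31.8, 27.1 and 26.6 CPM in -P+Th against 16.6, 16.2 and 19.01 CPM in -P (0.74, SE 0.14, adjusted p = 0.000654). No library overlapped between the groups of either line. In Col-0 it had 29.1, 21.0 and 15.4 CPM in -P+Th against 14.7, 14.9 and 14.7 CPM in -P (0.54, adjusted p = 0.0643). All 3 thorium libraries lay above the others without a call in edgeR, while DESeq2 (0.55, adjusted p = 0.0446) and edgeR with all 66 libraries in 1 fit (0.56, adjusted p = 0.0196) called ALS3 there. By replicate 1 alone, which has the highest ALS3 level, the value was 0.96. In N9416 the log2 fold change was 0.18 and was not called.

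ALS1 had 91.1, 83.6 and 47.8 CPM in N8507 -P+Th against 34.4, 37.1 and 37.2 CPM in N8507 -P (log2 fold change 1.06, SE 0.19, adjusted p = 0.000447). In N8508 it had 89.3, 96.2 and 96.1 CPM in -P+Th against 49.3, 55.7 and 58.6 CPM in -P (0.80, SE 0.11, adjusted p = 3.30e-05). The groups did not overlap in these lines. In N9416 the log2 fold change of ALS1 was 0.03 and in Col-0 0.02, neither called. Its Col-0 -P+Th libraries had 38.9, 65.96 and 48.2 CPM, on both sides of the 53.2, 48.2 and 47.1 CPM in Col-0 -P.

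The ferroxidase gene LPR2 rose with the aluminium genes. It had 131, 131 and 86.1 CPM in N8507 -P+Th against 47.6, 55.3 and 63.8 CPM in N8507 -P (log2 fold change 1.08, SE 0.25, adjusted p = 0.00378). In N8508 it had 127, 130.0 and 128 CPM in -P+Th against 67.7, 79.7 and 78.8 CPM in -P (0.78, SE 0.11, adjusted p = 5.24e-05). Every thorium library again lay above every -P library in both lines. LPR1, its paralog, was far lower and was not called in either line. It had 16.9, 15.0 and 11.1 CPM in N8507 -P+Th against 11.2, 9.47 and 8.89 CPM in N8507 -P (0.56, SE 0.22, adjusted p = 0.0647). LPR1 passed at 0.72 without the 3 libraries of low effective length and in DESeq2 at 0.58. In N8508 and N9416 its log2 fold change was 0.35 in each, not called. In Col-0 -P+Th LPR1 had 1.82, 6.22 and 3.72 CPM against 5.55, 6.61 and 6.73 CPM in Col-0 -P (-0.70, adjusted p = 0.122) and was called with all 66 libraries in 1 fit (-0.67, adjusted p = 0.0397). By replicate 1 alone, which has the lowest LPR1 level, the value was -1.80. LPR2 had log2 fold changes of 0.03 in N9416 and -0.06 in Col-0, neither called. The coding sequences of LPR1 and LPR2 are 76.8% identical and share no stretch of 31 bases.

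STOP1, the factor at the head of the pathway, did not rise in any genotype. It had 202, 201 and 145 CPM in N8507 -P+Th against 184, 197 and 228 CPM in N8507 -P (log2 fold change -0.13, not called). In N8508 it had 153, 168 and 172 CPM in -P+Th against 177, 144 and 176 CPM in -P (0.01, not called). In N9416 it fell, with 173, 169 and 167 CPM in -P+Th against 210.2, 213 and 218 CPM in -P (-0.28, SE 0.09, adjusted p = 0.0190). Every N9416 thorium library lay below every -P library. In Col-0 it had 181, 186 and 174 CPM in -P+Th against 189, 222 and 218 CPM in -P (-0.24, adjusted p = 0.118), without overlap; DESeq2 called it at -0.23. STOP1 protein, which is regulated after translation, was not measured.

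PDR2 had 122, 117 and 22.4 CPM in N8507 -P+Th against 113, 110.3 and 143 CPM in N8507 -P (log2 fold change -0.46, not called). In Col-0 -P+Th it had 29.2, 122 and 83.5 CPM against 168, 142 and 132 CPM in Col-0 -P (-0.94, SE 0.32, adjusted p = 0.0433), a call kept in 2 of 15 fits with a library left out. Both low values belong to libraries of low effective length. Over the series the 3 such libraries had 22.4 to 38.4 CPM of PDR2, which has the longest span of the 8 genes, while the other 63 had 83.5 to 168 CPM. Without the 3, the Col-0 log2 fold change was -0.55 (adjusted p = 0.0149), and by replicate 1 alone it was -2.35. In N8508 and N9416 it was -0.04 and -0.05, neither called. The same 3 libraries had 73.4% to 92.5% of their STOP1 reads on model 3 of STOP1, against 16.2% to 51.7% in the others.

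**Figure D2:**
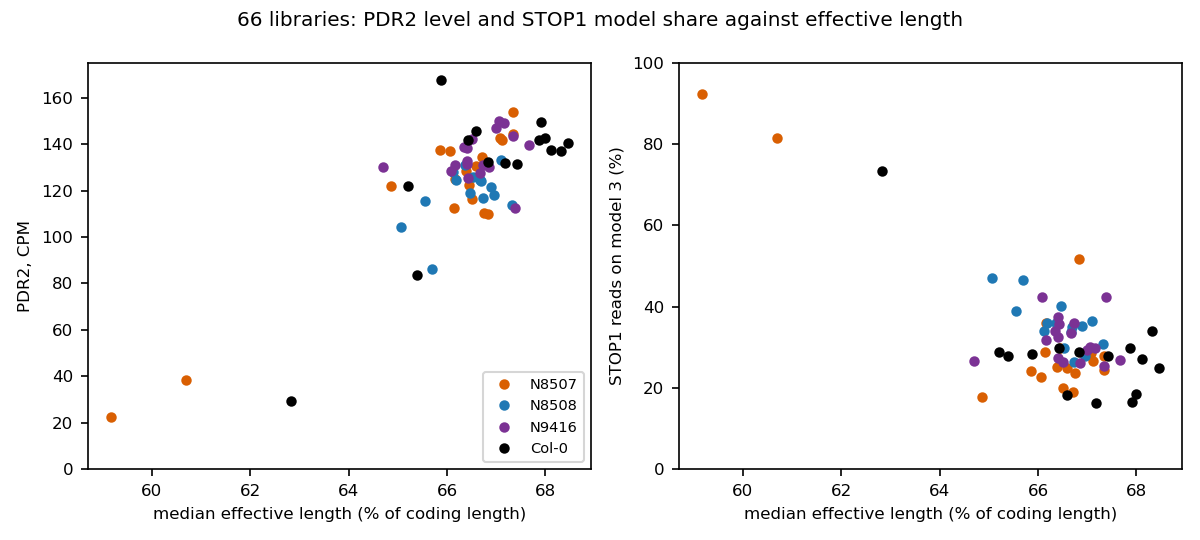
PDR2 level (CPM) and the share of STOP1 reads on model 3 (percent) against the median effective length of a library (percent of coding length), 1 point per library, 66 in all. The 3 libraries at 59.2% to 62.8% have 22.4 to 38.4 CPM of PDR2, below the 83.5 to 168 CPM of the others, and a STOP1 model share of 73.4% to 92.5%.

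On control medium thorium was measured in 2 lines. In N8507, 3 of the 8 genes rose and 0 fell, with 11.8% of all genes called and 8.22% called higher. In N9416, 2 rose and 1 fell, with 51.7% of all genes called and 27.2% called higher. ALMT1 had 6.64, 10.2 and 3.80 CPM in N8507 mock+Th against 0.884, 0.724 and 0.976 CPM in N8507 mock (log2 fold change 2.99, SE 0.45, adjusted p = 0.000269). In N9416 it had 4.14, 5.82 and 6.72 CPM in mock+Th against 0.0862, 0.0966 and 0 CPM in mock (6.34, SE 0.71, adjusted p = 1.44e-06). The libraries of both mock+Th groups overlapped, while those of both mock groups did not. The totals were 329 against 39 reads in N8507 (ratio 7.61, 95% interval 5.45 to 10.9) and 223 against 2 in N9416 (ratio 96.7, 26.5 to 804).

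MATE had 24.0, 21.7 and 23.3 CPM in N8507 mock+Th against 6.00, 4.28 and 14.6 CPM in N8507 mock (log2 fold change 1.48, SE 0.30, adjusted p = 0.00356). LPR1 had 17.2, 14.1 and 12.6 CPM in N8507 mock+Th against 7.20, 9.15 and 7.32 CPM in N8507 mock (0.90, SE 0.22, adjusted p = 0.0128). The ferroxidase gene rose in N9416 as well, with 10.3, 8.41 and 9.75 CPM in mock+Th against 6.04, 6.09 and 5.06 CPM in mock (0.75, SE 0.21, adjusted p = 0.00562). In all these cases the groups did not overlap. STOP1 fell in N9416, with 155, 214 and 172 CPM in mock+Th against 234, 244 and 231 CPM in mock (-0.37, SE 0.09, adjusted p = 0.00218). ALS1, ALS3, LPR2 and PDR2 were not called in either line. LPR2 had a log2 fold change of 0.71 in N8507 (adjusted p = 0.0852) and was called with counts scaled by effective length (adjusted p = 0.0244), without the 3 libraries of low effective length (0.0157) and with all 66 libraries in 1 fit (0.00756). ALS1 was called in N8507 without the 3 libraries (0.34, adjusted p = 0.0130).

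The thorium effect on -P could be set against that on control medium within these 2 lines. In N8507, 2 of the 8 genes had a larger effect on -P and 0 a smaller one, with 13.7% of all genes called. These were ALMT1, with a difference of 5.66 on the log2 scale (SE 0.70, adjusted p = 4.40e-05), and ALS3, with 1.42 (SE 0.30, adjusted p = 0.00406). ALS1 had a difference of 0.69 (SE 0.26, adjusted p = 0.0982) and was called by DESeq2 (0.72), with counts scaled by effective length (0.79), without the 3 libraries of low effective length (0.95) and with all 66 libraries in 1 fit (0.68). MATE, at 0.91 (SE 0.42, adjusted p = 0.176), was called in the last of these (0.90). In N9416 edgeR called 0 of the 8 genes, with 0 at an unadjusted p under 0.05 and 0 by DESeq2, against 12.9% of all genes. ALMT1 had a difference of 2.15 there (SE 2.06, adjusted p = 0.549), with 3 reads in its -P group and 2 in its mock group.

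The thorium effect was next taken with nano-hydroxyapatite in the medium. In each genotype the calls on the 8 genes were not far from the share of all genes. In N8507, 1 rose and 0 fell (4.65% of all genes called), in N8508 1 rose and 0 fell (16.4%), in N9416 0 rose and 1 fell (21.7%), and in Col-0 edgeR called 0 (0.105%), with 0 at an unadjusted p under 0.05 and 0 by DESeq2. ALMT1 had 1.74, 1.69 and 1.29 CPM in N8507 nanoP+Th against 0, 0.306 and 0.0952 CPM in N8507 nanoP (log2 fold change 3.40, SE 0.67, adjusted p = 0.00675). In N8508 it had 2.498, 0.842 and 0.512 CPM in nanoP+Th against 0.149, 0.0789 and 0.0766 CPM in nanoP (3.55, SE 0.72, adjusted p = 0.00423). These called rises ended at levels of a few CPM, where the -P+Th libraries of the same lines had 110.3 to 339 CPM. The totals were 76 against 6 reads in N8507 (ratio 10.7, 95% interval 4.70 to 30.1) and 48 against 4 in N8508 (ratio 12.7, 4.64 to 48.4). In N9416, ALMT1 had 0.180, 0.266 and 0.175 CPM in nanoP+Th against 0.160, 0.170 and 0 CPM in nanoP (0.94, adjusted p = 0.620). In Col-0 it had 0.187, 0.498 and 0.567 CPM in nanoP+Th against 0, 0 and 0.270 CPM in nanoP (2.06, SE 1.08, adjusted p = 0.993). The totals were 7 against 4 reads in N9416 (ratio 2.09, 0.531 to 9.73) and 19 against 4 in Col-0 (ratio 4.41, 1.47 to 17.8). The counting interval of Col-0 lies above 1, while the test over its libraries did not call the difference. STOP1 was the gene that fell in N9416, with 163, 162 and 173 CPM in nanoP+Th against 219, 220.4 and 233 CPM in nanoP (-0.42, SE 0.09, adjusted p = 0.00288).

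**Figure D3:**
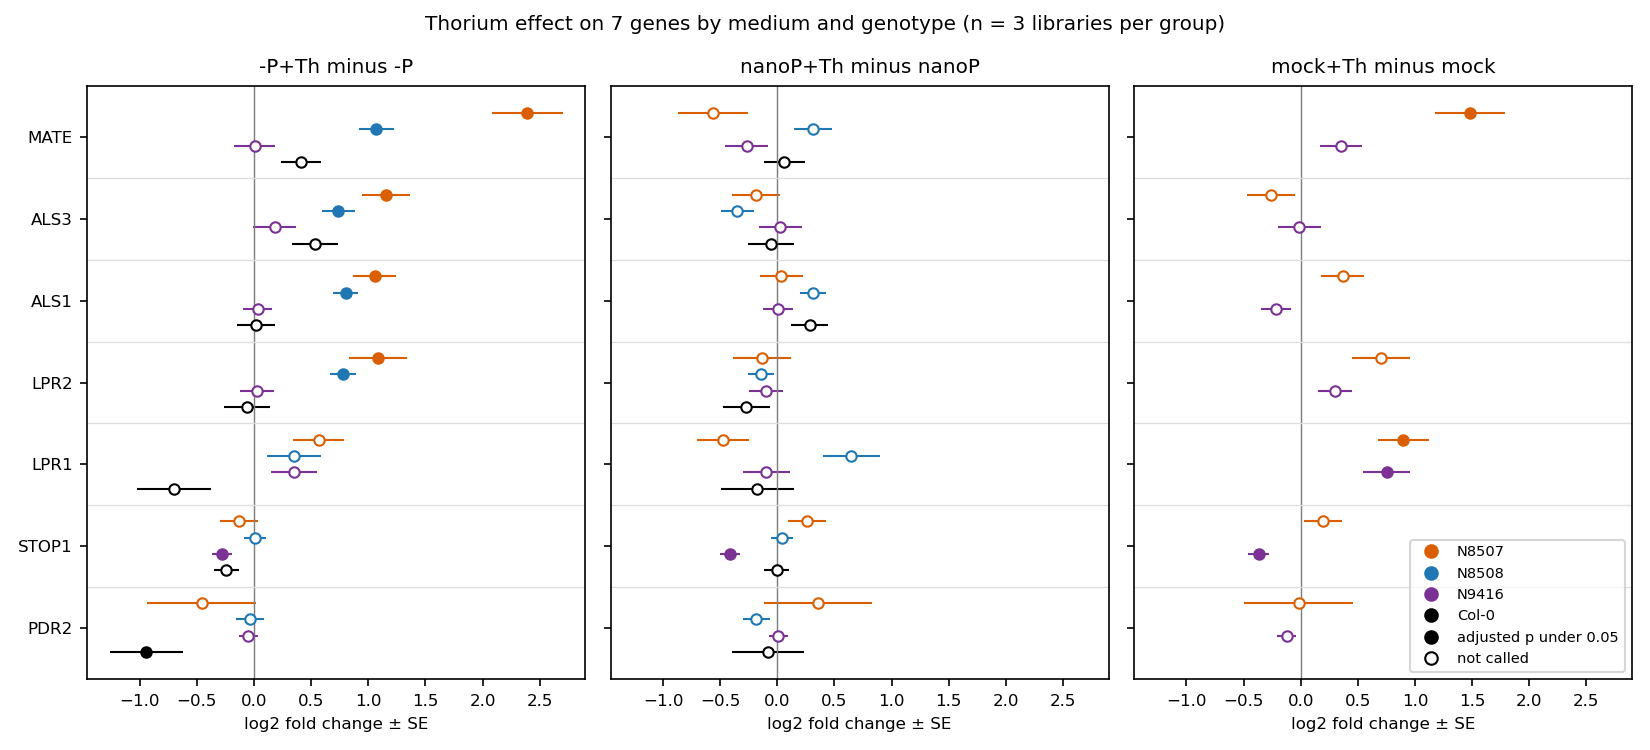
Log2 fold change of thorium ± SE for the 7 genes other than ALMT1, in panels by medium and with 1 marker per genotype; filled markers have an adjusted p under 0.05. On -P, MATE reaches 2.39 in N8507 and 1.07 in N8508, and ALS1, ALS3 and LPR2 lie between 0.74 and 1.16 in both lines.

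The difference of both thorium effects was itself tested. The effect with nano-hydroxyapatite was lower than that on -P for 6 of the 8 genes in N8507, with 24.0% of all genes called and 13.1% called lower. It was lower for 5 of 8 in N8508 (28.8% called, 11.7% lower), for 1 of 8 in N9416 (20.4% called, 10.0% lower) and for 1 of 8 in Col-0 (7.72% called, 3.27% lower). It was called higher for none of the 8 in any genotype in these fits; with all 66 libraries in 1 fit STOP1 was called higher in N8507 (0.38, adjusted p = 0.0472). For ALMT1 the difference was -5.26 in N8507 (SE 1.25, adjusted p = 0.00556), -6.91 in N8508 (SE 1.75, adjusted p = 0.00778), -7.55 in N9416 (SE 1.95, adjusted p = 0.0110) and -7.29 in Col-0 (SE 2.07, adjusted p = 0.0444), on the log2 scale. The Col-0 call was lost in 9 of 15 fits that left out a library, where its value ran from -10.82 to -3.70. By replicate 1 of -P+Th alone the Col-0 difference was -6.24 for ALMT1 and -1.02 for ALS3, and it was positive for PDR2 (2.27), LPR1 (1.62) and ALS1 (0.64). With all 3 libraries these 4 genes had differences of -0.59, 0.86, 0.52 and 0.27 in the order ALS3, PDR2, LPR1, ALS1, none called. In the lines the ALMT1 calls rest on the few reads of the nanoP groups. They were lost without N8507 nanoP replicate 2 (adjusted p = 0.327), without N8508 nanoP replicate 1 (adjusted p = 0.0650) and without N9416 nanoP replicate 1 or 2 (adjusted p up to 0.0810).

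In N8507 the other genes with a lower effect were MATE (-2.96, SE 0.43, adjusted p = 0.000119), ALS3 (-1.34, SE 0.30), LPR2 (-1.22, SE 0.36), LPR1 (-1.04, SE 0.32) and ALS1 (-1.02, SE 0.27), with adjusted p of 0.00348 to 0.0244 for the last 4. The call of LPR1 was lost in 5 of 18 fits with a library left out (adjusted p up to 0.0610) and that of LPR2 in 3 of 18 (up to 0.0592). Without the 3 libraries of low effective length ALS3 moved to -0.97, LPR2 to -1.61 and ALS1 to -1.34. In N8508 they were ALS3 (-1.09, SE 0.20), LPR2 (-0.92, SE 0.16), MATE (-0.76, SE 0.22) and ALS1 (-0.49, SE 0.16), with adjusted p of 0.000509 to 0.0301. These differences use the same -P and -P+Th libraries as the first comparison. In neither line was STOP1 or PDR2 called.

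**Figure D4:**
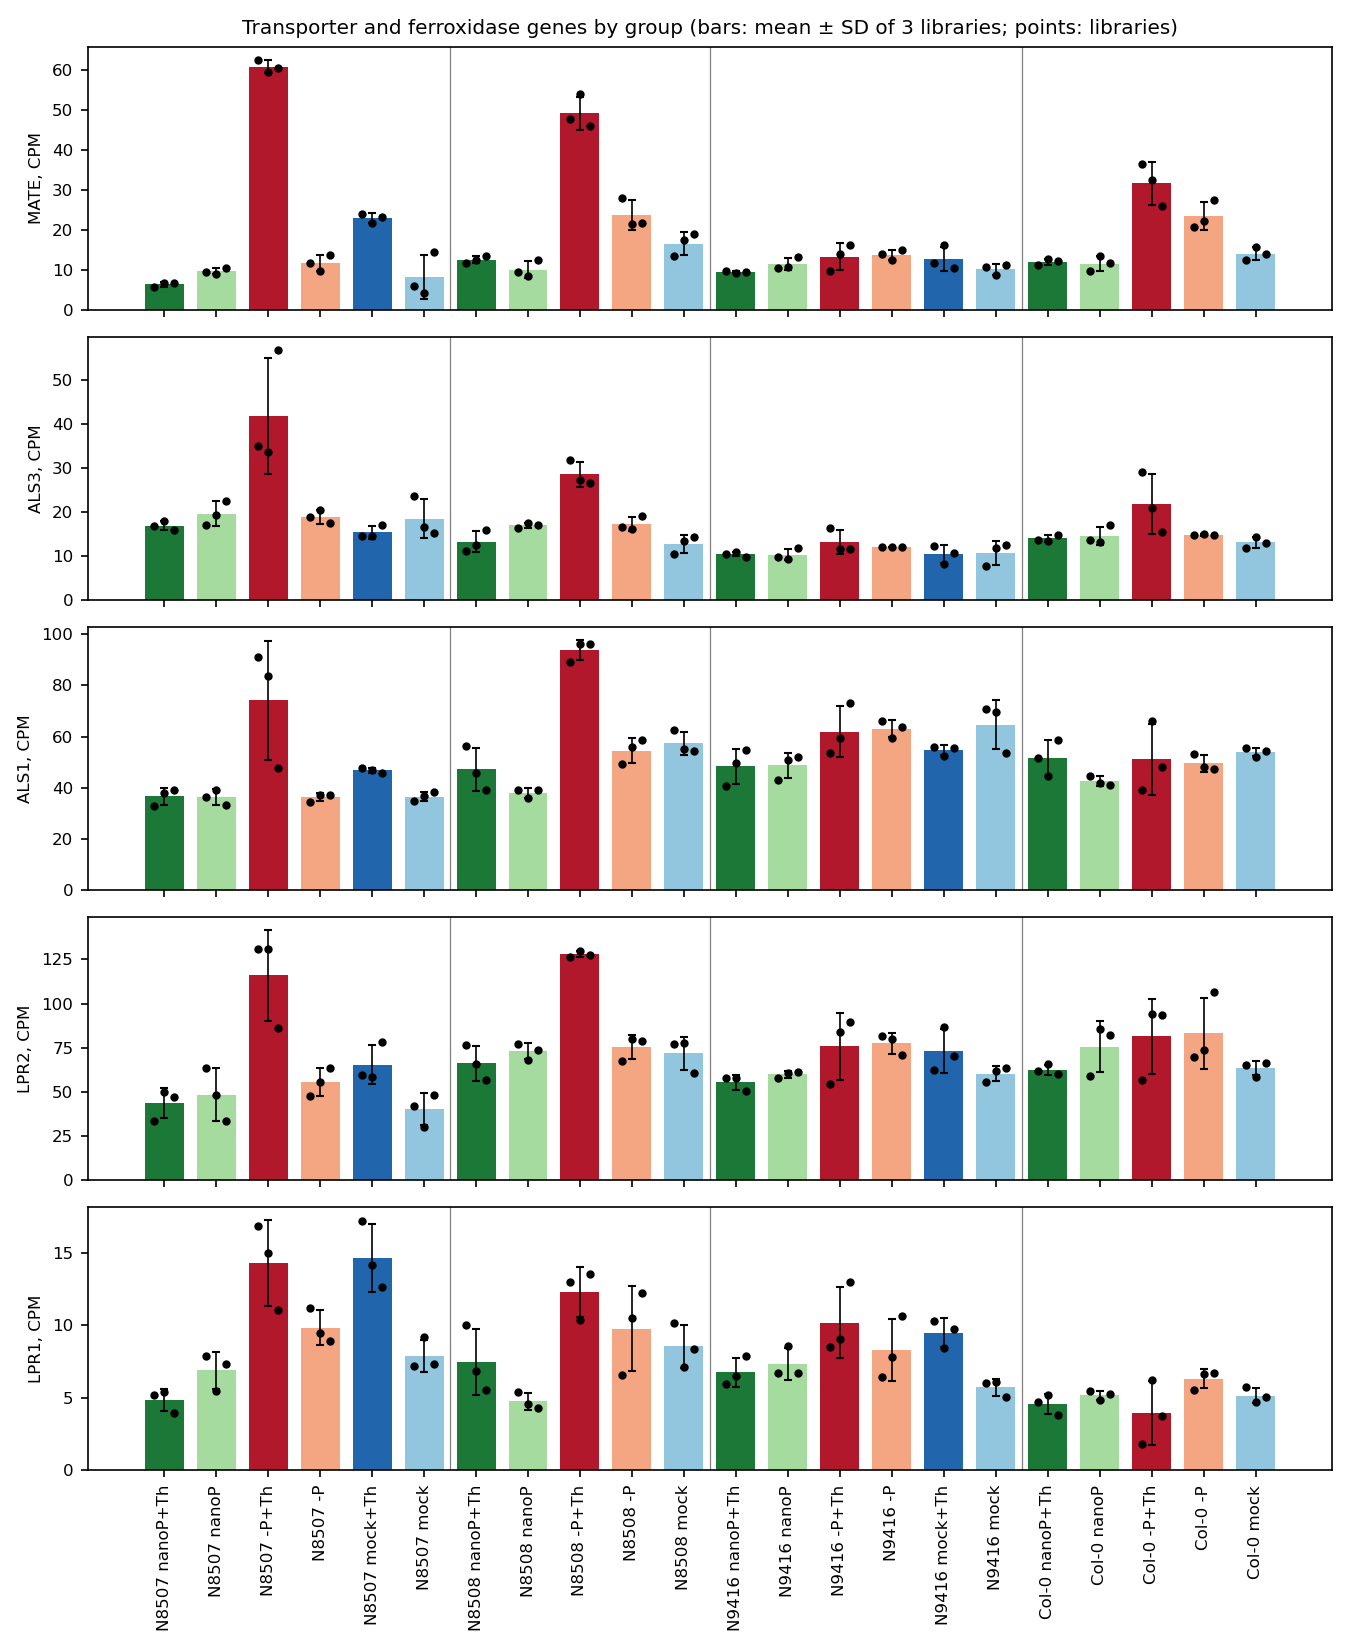
Levels (CPM) of MATE, ALS3, ALS1, LPR2 and LPR1 in the 22 groups; bars are means, error bars SD (n = 3) and points libraries. MATE stands at 59.6 to 62.7 CPM in N8507 -P+Th and at 46.0 to 54.0 CPM in N8508 -P+Th, above all other groups.

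Without thorium, -P was set against mock. In N8507, N8508 and Col-0 the calls on the 8 genes were not far from the share of all genes. Against mock, -P changed 1 of the 8 genes in N8508, which fell (9.59% of all genes called), and 1 in Col-0, which rose (6.61%). edgeR called 0 of the 8 in N8507 (3.90% of all genes), with 0 at an unadjusted p under 0.05, and 0 in N9416 (38.1%), with 3 at an unadjusted p under 0.05; DESeq2 called 0 in both. The gene that fell was ALMT1, with 0.302, 0.107 and 0.255 CPM in N8508 -P against 3.11, 1.45 and 1.61 CPM in N8508 mock (log2 fold change -3.10, SE 0.61, adjusted p = 0.00449). Every -P library lay below every mock library in N8508, and also in N8507 and Col-0, while the groups of N9416 overlapped. The log2 fold change of ALMT1 was -1.01 in N8507, 0.47 in N9416 and -2.26 in Col-0 (adjusted p = 0.296), none called. Its totals were 19 reads in -P against 39 in mock in N8507 (95% interval of the ratio 0.261 to 0.847). They were 4 against 21 in Col-0 (0.0448 to 0.532) and 3 against 2 in N9416 (0.149 to 15.6). The counting intervals of N8507 and Col-0 lie below 1, while the test over the libraries did not call these differences. The gene that rose was MATE, with 20.7, 22.2 and 27.5 CPM in Col-0 -P against 12.5, 15.8 and 13.9 CPM in Col-0 mock (0.75, SE 0.18, adjusted p = 0.0183). Its log2 fold change was 0.50 in N8507, 0.51 in N8508 (adjusted p = 0.0530) and 0.45 in N9416 (adjusted p = 0.0681), none called. In N8508 it was called by DESeq2 (0.51, adjusted p = 0.0289) and with counts scaled by effective length (0.53, adjusted p = 0.0493). That scaling also called LPR1 (0.55) and LPR2 (0.39) in N9416.

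Nano-hydroxyapatite was set against -P to ask what the added phosphate source changed. In N8508, 3 of the 8 genes fell and 0 rose (38.0% of all genes called), in N9416 1 fell (30.2%) and in Col-0 1 fell (6.10%). In N8507 edgeR and DESeq2 called 0 (4.49% of all genes called by edgeR), with 2 at an unadjusted p under 0.05. MATE had 9.51, 8.45 and 12.4 CPM in N8508 nanoP against 28.0, 21.5 and 21.7 CPM in N8508 -P (log2 fold change -1.22, SE 0.16, adjusted p = 3.48e-05). In Col-0 it had 9.64, 13.4 and 11.7 CPM in nanoP against 20.7, 22.2 and 27.5 CPM in -P (-1.02, SE 0.18, adjusted p = 0.00208). MATE thus fell without overlap in both genotypes. LPR1 had 5.42, 4.58 and 4.29 CPM in N8508 nanoP against 6.55, 10.5 and 12.2 CPM in N8508 -P (-1.03, SE 0.25, adjusted p = 0.00435). ALS1 had 39.0, 35.8 and 39.1 CPM in N8508 nanoP against 49.3, 55.7 and 58.6 CPM in N8508 -P (-0.52, SE 0.11, adjusted p = 0.00214). In N9416 ALS1 had 43.0, 50.9 and 52.2 CPM in nanoP against 66.01, 59.4 and 63.7 CPM in -P (-0.35, SE 0.13, adjusted p = 0.0495), a call that held in 6 of 18 fits with a library left out.

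Against mock, nanoP changed 5 of the 8 genes in N8508, 1 higher and 4 lower (28.9% of all genes called). edgeR called 0 in N8507 (3.05%), with 1 at an unadjusted p under 0.05, 0 in N9416 (14.4%), with 1, and 0 in Col-0 (0.562%), with 0. DESeq2 called ALMT1 in N8507 (-2.59) and ALS1 in N9416 (-0.41), and 0 in Col-0. In N8508 the genes that fell were ALMT1 (log2 fold change -4.16, SE 0.67, adjusted p = 0.000297), LPR1 (-0.83, SE 0.25, adjusted p = 0.0213), MATE (-0.71, SE 0.16, adjusted p = 0.00449) and ALS1 (-0.58, SE 0.11, adjusted p = 0.00125). ALS3 rose, with 16.3, 17.5 and 16.9 CPM in N8508 nanoP against 10.5, 13.3 and 14.4 CPM in N8508 mock (0.42, SE 0.15, adjusted p = 0.0438).

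The lines were then compared with Col-0 on control medium. In N8507, 2 of the 8 genes were higher and 3 lower than in Col-0 (36.1% of all genes called), and in N8508 2 were higher and 0 lower (27.2%). In N9416 edgeR called 0 (31.8% of all genes), with 3 at an unadjusted p under 0.05, and DESeq2 called ALMT1 (-2.96). In N8507 mock, MATE was lower than in Col-0 mock, with 6.00, 4.28 and 14.6 CPM against 12.5, 15.8 and 13.9 CPM (log2 difference -0.77, SE 0.22, adjusted p = 0.00531); replicate 3 of N8507 lay inside the Col-0 range. LPR2 was lower, with 42.2, 30.3 and 48.1 CPM in N8507 mock against 65.5, 58.6 and 66.3 CPM in Col-0 mock (-0.66, SE 0.20, adjusted p = 0.00743). ALS1 was lower as well, with 34.7, 36.7 and 38.1 CPM in N8507 mock against 55.5, 52.2 and 54.3 CPM in Col-0 mock (-0.56, SE 0.15, adjusted p = 0.00282). For these 2 genes the groups did not overlap. LPR1 (0.62, SE 0.25, adjusted p = 0.0458) and ALS3 (0.50, SE 0.19, adjusted p = 0.0323) were higher in N8507. ALMT1 was higher in N8508, with 3.11, 1.45 and 1.61 CPM in N8508 mock against 0.312, 0.543 and 0.535 CPM in Col-0 mock (2.12, SE 0.61, adjusted p = 0.00601), and so was LPR1 (0.73, SE 0.25, adjusted p = 0.0230). The calls of LPR1 in both lines and of ALS3 in N8507 were lost when only the libraries of both genotypes entered the fit, and that of ALMT1 without N8508 mock replicate 1. MATE in N8507 lost its call without mock replicate 1 (-0.56, adjusted p = 0.0749) or 2 (-0.43, adjusted p = 0.138) of that line, and had -1.46 without replicate 3. LPR2 in N8507 lost it without mock replicate 2 (-0.47, adjusted p = 0.105).

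The response to -P did not differ from that of Col-0 for any of the 8 genes at the threshold. edgeR called 0 in each line, with 0 at an unadjusted p under 0.05 in N8507, 1 in N8508 and 0 in N9416, and DESeq2 called 0; of all genes, 5.54%, 6.45% and 7.15% were called in N8507, N8508 and N9416.

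The thorium effect on -P was larger than in Col-0 for 4 of the 8 genes in N8507 (20.4% of all genes called), 3 in N8508 (14.8%) and 1 in N9416 (18.8%), and it was called smaller for none of the 8 in these fits. In N8507 the log2 difference was 1.94 for MATE (SE 0.31, adjusted p = 3.87e-06), 1.21 for LPR1 (SE 0.35, adjusted p = 0.00896), 1.09 for LPR2 (SE 0.28, adjusted p = 0.00325) and 0.99 for ALS1 (SE 0.22, adjusted p = 0.000554). In N8508 it was 1.00 for LPR1 (SE 0.35, adjusted p = 0.0463), 0.80 for LPR2 (SE 0.28, adjusted p = 0.0458) and 0.74 for ALS1 (SE 0.22, adjusted p = 0.0139), and in N9416 it was 0.96 for LPR1 (SE 0.35, adjusted p = 0.0480). These comparisons share the Col-0 libraries. Without the 3 libraries of low effective length the N8507 differences were 2.07 for MATE, 1.04 for LPR1, 1.07 for LPR2 and 1.07 for ALS1, all called. PDR2 was then called too, in N8507 (0.50, adjusted p = 0.0357) and N9416 (0.47, adjusted p = 0.0445), against 0.43 and 0.81 with all libraries, neither called. LPR1 and LPR2 in N8508 and LPR1 in N9416 then moved to 0.68 (adjusted p = 0.157), 0.61 (adjusted p = 0.0933) and 0.68 (adjusted p = 0.126). By replicate 1 of Col-0 -P+Th alone the N8507 differences were 1.74 for MATE, 2.33 for LPR1, 1.62 for LPR2 and 1.38 for ALS1. Those of N8508 were 2.0997 for LPR1, 1.31 for LPR2 and 1.12 for ALS1, and that of LPR1 in N9416 was 2.0961. In that fit PDR2 differed by 1.85 in N8507, 2.27 in N8508 and 2.25 in N9416, and ALS3 by -0.83 in N9416; replicate 1 is the Col-0 library with the low PDR2 level. ALMT1 was not called in this comparison. Its log2 difference from the Col-0 effect was -0.73 in N8507 (SE 1.09), 1.09 in N8508 (SE 1.66) and -0.92 in N9416 (SE 1.82). No interval was computed and the -P groups held few ALMT1 reads, so the genotypes are not ranked by these values.

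Set beside each other per length, STOP1 was the most abundant of the 8 transcripts in 20 of 22 groups, with group means of 88.0 to 136 TPM. ALMT1 took its place in N8508 -P+Th (199 ± 7.51 TPM) and N8507 -P+Th (107 ± 29.6 TPM). It ranked 2nd in Col-0 -P+Th (38.6 ± 20.2 TPM), 5th in N9416 -P+Th (19.01 ± 10.02 TPM) and last in the other 18 groups. LPR1, at 1.55 to 5.55 TPM, was last in the 4 -P+Th groups. Between them lay LPR2 with group means of 17.1 to 51.2 TPM, ALS1 with 16.5 to 43.1 TPM, PDR2 with 15.8 to 33.1 TPM, ALS3 with 11.5 to 36.8 TPM and MATE with 4.19 to 36.2 TPM. The lowest PDR2 means, in Col-0 -P+Th (15.8 ± 10.2 TPM) and N8507 -P+Th (16.95 ± 11.4 TPM), each include a library of low effective length. In CPM over all 66 libraries STOP1 ranged from 138 to 244 (median 188), LPR2 from 30.3 to 131 (65.5), ALS1 from 32.7 to 96.3 (50.2), ALS3 from 7.67 to 56.9 (14.8), MATE from 4.28 to 62.7 (12.9) and LPR1 from 1.82 to 17.2 (6.99).

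**Figure D5:**
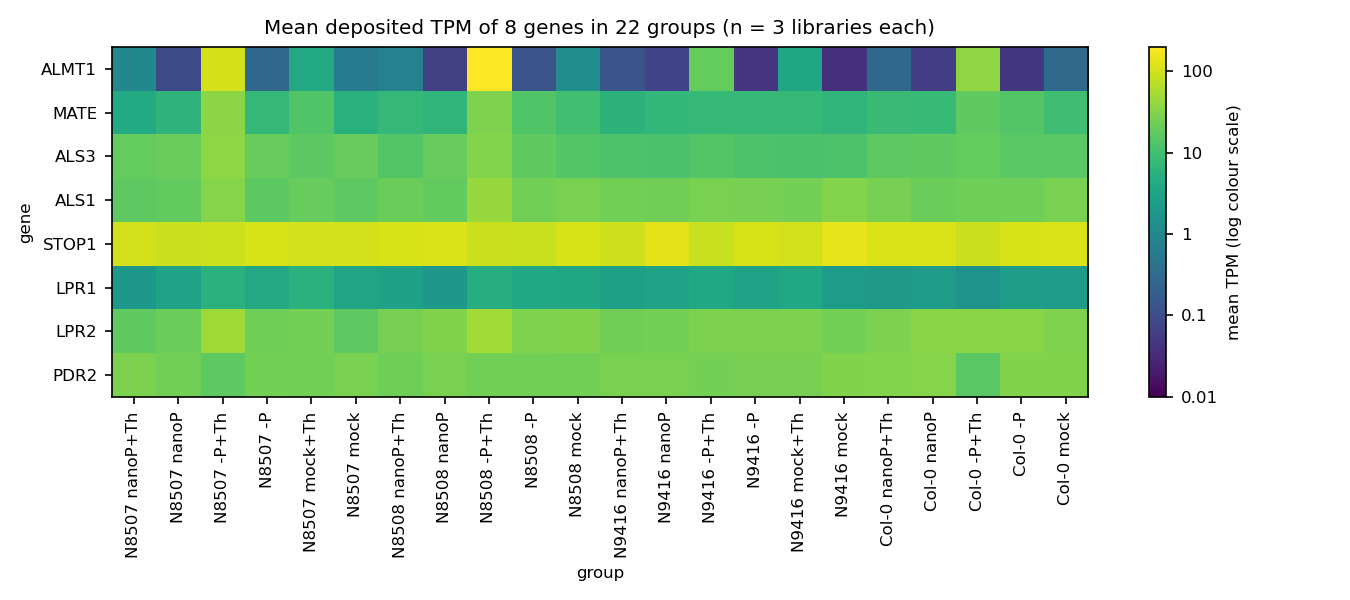
Mean TPM (log colour scale) of the 8 genes in the 22 groups. ALMT1 lies at 199 TPM in N8508 -P+Th and 107 TPM in N8507 -P+Th and is the lowest of the 8 genes in the 18 groups other than -P+Th, while STOP1 stays between 88.0 and 136 TPM.

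Of 31 other genes of the pathway, chosen from general knowledge with earlier results of these data known, 10 rose and 2 fell of 31 tested in N8507 -P+Th against -P, where 29.8% of all genes were called. In N8508, 13 rose and 6 fell of 30 (47.2% of all genes), in N9416 11 rose and 9 fell of 30 (40.0%), and in Col-0 10 rose and 1 fell of 30 (25.4%), with median log2 fold changes of 0.12, -0.12, -0.07 and 0.07 in the order N8507, N8508, N9416, Col-0. PGIP1, a STOP1 target that encodes a polygalacturonase inhibitor, rose by 8.16 in N8507 (SE 0.48, adjusted p = 8.30e-09), 6.85 in N8508 (SE 0.28), 5.10 in N9416 (SE 0.40) and 4.83 in Col-0 (SE 0.63) on the log2 scale. The vacuolar malate transporter gene TDT rose by 4.18 in N8508, 3.22 in N9416 and 4.22 in Col-0. The cell wall gene XTH17 rose by 4.67 in N9416 (SE 0.47), and SAUR55 by 3.59 in N8507, 1.39 in N8508, 0.97 in N9416 and 2.91 in Col-0. Named after their values were seen, STOP2, the homolog of STOP1, rose in all 4 genotypes (2.09, 0.42, 2.53 and 2.62 in the same order), as did NIP1;2, an aquaporin that carries aluminium malate (1.91, 2.06, 0.90 and 1.20).

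On control medium, thorium raised 8 and lowered 1 of the list in N8507 (median log2 fold change 0.16; 11.8% of all genes called) and raised 10 and lowered 12 in N9416 (-0.03; 51.7%). PGIP1 rose by 3.77 in N8507 and 3.76 in N9416, XTH17 by 3.53 in N9416 and the glutamate dehydrogenase gene GDH2 by 1.84 in N8507 and 2.44 in N9416, while XTH31 fell by 2.74 in N8507 and by 0.66 in N9416. With nano-hydroxyapatite, thorium raised 5 and lowered 1 in N8507 (4.65% of all genes called), 5 and 3 in N8508 (16.4%), 2 and 6 in N9416 (21.7%) and 1 and 0 in Col-0 (0.105%). STOP2 was called higher in every genotype there, by 1.88 in N8507, 1.15 in N8508, 2.02 in N9416 and 1.71 in Col-0. PGIP1 rose by 2.59 in N8508, TDT rose by 2.02 in N8507 and fell by 0.98 in N8508, and WRKY46, a repressor of ALMT1, fell by 1.61 in N9416. The thorium effect with nano-hydroxyapatite was higher than on -P for 2 and lower for 9 of the list in N8507 (24.0% of all genes called), 7 and 9 in N8508 (28.8%), 4 and 9 in N9416 (20.4%) and 0 and 5 in Col-0 (7.72%). It was lower for PGIP1 by -7.09 in N8507, -4.26 in N8508 and -3.51 in N9416, for TDT by -5.16 in N8508, -2.26 in N9416 and -3.47 in Col-0, for XTH17 by -5.25 in N9416, and for SAUR55 by -4.31, -1.92, -1.91 and -2.19 in the order N8507, N8508, N9416, Col-0. In N8507 and N9416 the thorium effect on -P exceeded that on control medium for 5 and 7 of the list and fell short of it for 3 and 1, with 13.7% and 12.9% of all genes called.

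Without thorium, -P against mock raised 4 and lowered 1 of the list in N8507 (3.90% of all genes called), 1 and 3 in N8508 (9.59%), 5 and 8 in N9416 (38.1%) and 1 and 5 in Col-0 (6.61%). TDT fell by 2.79 in N8508, PEPR2, a receptor kinase gene, and WRKY46 rose by 2.66 and 2.64 in N9416, and SAUR55 fell by 2.58 in Col-0. Against -P, nanoP raised 2 and lowered 5 in N8507 (4.49%), 6 and 8 in N8508 (38.0%), 6 and 7 in N9416 (30.2%) and 2 and 3 in Col-0 (6.10%); TDT rose by 4.15, STOP2 fell by 2.48 and XTH31 fell by 1.95 in N8508, and PGIP1 fell by 3.40 in Col-0. Against mock, nanoP raised 1 and lowered 3 in N8507 (3.05%), 5 and 8 in N8508 (28.9%), 5 and 2 in N9416 (14.4%) and 0 and 3 in Col-0 (0.562%); PGIP1 fell by 4.08 and STOP2 by 2.73 in Col-0, and XTH17 rose by 2.63 and WRKY46 by 2.22 in N9416.

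Between lines and Col-0 on mock, 5 of the 31 were higher and 8 lower in N8507 (36.1% of all genes called), 5 and 6 in N8508 (27.2%) and 6 and 7 in N9416 (31.8%), not far from the share of all genes. PGIP1 was lower by -2.91 in N8507 and -3.49 in N9416, STOP2 by -2.38 in N8507, -1.54 in N8508 and -2.55 in N9416, and ALMT3 by -2.31 in N8508, while XTH17 was higher by 2.43 in N8507. In the response to -P, 4 were higher and 2 lower in N8507 (5.54%), 4 and 3 in N8508 (6.45%) and 4 and 0 in N9416 (7.15%). STOP2 differed there by 2.70, 2.73 and 1.57 in the same order, XTH17 by -3.15 in N8507, SAUR55 by 2.68 in N8508, and XTH31 by 2.67 in N8508 and 2.43 in N9416. In the thorium effect on -P, 4 were higher and 3 lower in N8507 (20.4%), 4 and 7 in N8508 (14.8%) and 2 and 3 in N9416 (18.8%). The largest differences were 5.68 for XTH17 in N9416, 3.29 for PGIP1 in N8507, -3.22 for TDT in N8507 and -2.75 for FRD3, a citrate efflux transporter gene, in N8508; PGIP1 differed by 1.98 in N8508.

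Across the 22 group means of log2 CPM, among 18000 genes, the pattern most like that of ALMT1 was shown by ACS8, which encodes an enzyme of ethylene synthesis (Pearson r = 0.967), by UGT74E2, an auxin glucosyltransferase gene (r = 0.952), and by NRAMP3, a vacuolar metal exporter gene (r = 0.951). For MATE it was the ribonuclease gene RNS1 (r = 0.937), for ALS1 the calcium-dependent kinase gene CPK27 (r = 0.918), for ALS3 AT3G17160 (r = 0.889), for LPR2 the monooxygenase gene AT1G12200 (r = 0.910), for LPR1 AT5G20110 (r = 0.817), for PDR2 AT5G51300 (r = 0.965) and for STOP1 AT2G44140 (r = 0.745). Among the 8 genes MATE and LPR2 were most alike (r = 0.864), followed by ALS1 and LPR2 (r = 0.791), while ALMT1 and MATE had r = 0.699 and ALMT1 and STOP1 had r = -0.391. These are descriptions over groups that share genotypes and library series. The lowest group means of PDR2 were 78.2 CPM in Col-0 -P+Th, 87.0 CPM in N8507 -P+Th and 108 CPM in N8507 nanoP. Each of these groups holds a library of low effective length, and likeness without these libraries was not computed.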

How the data were processed

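Salmon tables of 66 root libraries were used. Per the labels, the Spectrum kit gave total RNA and the NEBNext Ultra II kit gave directional libraries. The tools were Trimmomatic and Salmon 1.3.0 and the build TAIR10, per the submitters' processing notes; bias and strand settings are not given in the sources used here. The deposited estimated counts are those of the authors' Salmon run, per transcript model and not normalized. The deposited TPM values of the authors were summed per locus and used only to compare genes with each other. The deposited effective lengths, another value of the authors' Salmon run, served as a quality check, as the median over models of at least 300 bases. The 32875 models are coding sequences, with 99.99% of lengths divisible by 3, and hold no untranslated regions.

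Expected counts were added up for each of 27313 loci and rounded to whole numbers. Symbols came from the TAIR10.1 RefSeq annotation and matched 26645 loci. Of the models with a RefSeq locus, 96.4% had the length of a RefSeq coding sequence. Groups came from the genotype and treatment labels, and replicates were numbered in accession order. Tests used R 4.3.3 with edgeR 4.0.16 (two-sided quasi-likelihood F-test, TMM, filterByExpr by group, Benjamini-Hochberg over all genes tested, threshold 0.05). Each genotype had its own fit, with 20241 genes tested in N8507, 19908 in N8508, 19762 in N9416 and 19931 in Col-0. Comparisons of genotypes used 1 fit of all libraries with 20839 genes. Common dispersions were 0.0769, 0.0214, 0.018 and 0.0547 in N8507, N8508, N9416 and Col-0, so a given effect passes more easily in N8508 and N9416. The SE is the absolute log2 fold change divided by the square root of F. The comparison of the thorium effect on -P with that on mock was added to those designed. Scripts were tested on simulated data.

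All 8 members are named throughout. From a list of 31 other pathway genes, up to 4 called genes with the largest changes were named per kind of comparison. Likeness was ranked by Pearson r over group means of log2 CPM (prior count 2). The members, lists and tests were chosen with earlier results of these data known. The alternatives were DESeq2 1.42.0 with its size factors, RLE scaling, no filter on low counts, counts scaled by effective length, leaving out the 3 libraries of low effective length, another set of genotypes in the fit and leaving out each library. Added after seeing the data was Col-0 -P+Th by replicate 1 alone.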

Additional observations from a re-analysis of the deposited data

Results flagged for a closer look

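The values below, all on the log2 scale, passed a test of the difference between effects of thorium, in 2 media or in 2 genotypes. The groups of 3 are too small for a test of single outlying libraries.

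The effect of thorium with nano-hydroxyapatite was lower than on -P in N8507 for ALMT1 (-5.26), MATE (-2.96), ALS3 (-1.34), LPR2 (-1.22), LPR1 (-1.04) and ALS1 (-1.02). In N8508 it was lower for ALMT1 (-6.91), ALS3 (-1.09), LPR2 (-0.92), MATE (-0.76) and ALS1 (-0.49). In N9416 (-7.55) and in Col-0 (-7.29) it was lower for ALMT1. The ALMT1 differences rest on few reads in the nanoP and -P groups. ALMT1 passed the filter on low counts in Col-0 through -P+Th alone, and in N9416 through -P+Th and mock+Th alone. With a library left out, its call was kept in 17 of 18 fits in N8507 and 14 of 15 in N8508. It was kept in 16 of 18 in N9416 and 6 of 15 in Col-0.

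On -P the effect of thorium in N8507 exceeded that on control medium for ALMT1 (5.66) and ALS3 (1.42).

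The effect of thorium on -P was larger in N8507 than in Col-0 for MATE (1.94), LPR1 (1.21), LPR2 (1.09) and ALS1 (0.99). It was larger in N8508 than in Col-0 for LPR1 (1.00), LPR2 (0.80) and ALS1 (0.74), and in N9416 than in Col-0 for LPR1 (0.96). The libraries of N8508 and N9416 and those of Col-0 carry different number series, which cannot be told apart from the lines.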

How the results depend on the processing

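No paired analysis was possible because the replicates were numbered in accession order and the library numbers in the labels are unique to a library. Of 65 calls on the 8 genes, 40 passed in every fit with a library left out and 55 under every other setting; of 1766 single values, 1641 kept their direction and side of the threshold, 125 lost the call and 0 reversed. The calls of ALMT1 on -P+Th in all 4 genotypes, and of MATE, ALS1, ALS3 and LPR2 in N8507 and N8508, passed under every setting run. The count of calls for -P against mock was 2 and became 5 with counts scaled by effective length; the cause was not tested. With libraries left out in turn the counts were 1 to 5 for -P against mock, 3 to 6 for nanoP against mock (5 with all), 3 to 5 for nanoP+Th against nanoP (3 with all), 4 to 8 for the lines against Col-0 on mock (7 with all) and 5 to 10 for their thorium effect on -P (8 with all). For -P+Th against -P the range was 13 to 15 around 14, and by DESeq2 the count was 17. Single calls lost in some fits with a library left out include PDR2 in Col-0 -P+Th, kept in 2 of 15 (-1.42 to -0.55). The call of PDR2 lay near the threshold in edgeR (adjusted p = 0.0433). It was kept without replicate 1 or 2 of Col-0 -P+Th and lost without any other Col-0 library. ALS3 in N8508 nanoP against mock was kept in 8 of 15 and MATE in Col-0 -P against mock in 12 of 15. The difference of thorium effects of ALS1 in N8508 was kept in 7 of 15. The larger effect of ALS1 in N8508 than in Col-0 was lost without Col-0 -P+Th replicate 1 (0.59, adjusted p = 0.0881) and kept without all 3 libraries of low effective length (0.60, adjusted p = 0.0148). Values called under an alternative alone, and not given above, were ALS1 in N8508 nanoP+Th against nanoP (0.33) and MATE in N9416 against Col-0 on mock (-0.57) with counts scaled by effective length, STOP1 in N8507 nanoP against -P (-0.40) with all 66 libraries in 1 fit, and STOP1 in N9416 against Col-0 on mock without the 3 libraries (0.23) or with only both genotypes (0.26). Depth limits ALMT1 outside the thorium groups, where it had 0 to 32 reads per library.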
